A study of Canis lupus familiaris with 6 samples.

Results

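The genes described here encode the nuclear-encoded part of the mitochondrial respiratory chain and the proteins that share their name stems, as measured in RasV12 cells cultured alone or among normal cells. Members were chosen by name: every gene on the array whose name starts with NDUFA, NDUFB, NDUFC, NDUFS, NDUFV, SDHA to SDHD, UQCR, ATP5, or COX4 to COX8. This gave 51 genes with 79 array probes, out of 34378 different names on 43603 probes, and each gene was represented by its brightest probe. Measured against their known functions, 39 of the 51 were subunits of the respiratory complexes. The other 12 were genes named as assembly factors (8 genes) or related proteins that are not core subunits (4 genes). The name stem and the function thus did not coincide for every member.

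MDCK cells are an epithelial line from dog kidney. MDCK-pTR GFP-RasV12 cells derive from them and express GFP-tagged oncogenic Ras when tetracycline is added, and both culture conditions used these cells with 24 h of tetracycline. In the group called alone, RasV12 cells were the only cells in the dish (n = 3 arrays), and in the group called mixed they were outnumbered by normal MDCK cells (n = 3 arrays), and in both GFP-positive cells were sorted before RNA extraction. The arrays were run to ask whether responses seen in cells with active Wnt signalling also occur in cells without it, and the sorted population is a line in culture rather than a tissue. The labels give 10 MDCK cells to 1 RasV12 cell for mixed replicates 1 and 3 but 100 to 1 for mixed replicate 2, whereas the study's methods give 10 to 1 throughout. The extraction text of the labels also names an mCherry-β-catenin Δ131 transgene that the titles and the methods do not give to these cells.

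The respiratory chain passes electrons from NADH through complex I, or from succinate through complex II, to coenzyme Q, then through complex III and cytochrome c to complex IV, where oxygen is reduced. Complexes I, III and IV pump protons as they do so, and complex V, the ATP synthase, uses the gradient to make ATP. Most subunits are encoded in the nucleus and a small core set in mitochondrial DNA, and kidney epithelium is known for its dependence on this chain.

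Each level below is a log2 value relative to the 75th percentile of its array, an intensity of 592 to 699.6, and each array had 60.8% to 66.4% of its probes well above background. Alone and mixed arrays were on separate slides, so the effects of slide and of culture cannot be told apart. Of 6 epithelial kidney line markers on the array, 6 were well above background on all arrays and 0 were called, with 2 at an unadjusted p under 0.05 by limma. Of 9 markers of other cell types, the endothelial marker CDH5, the leukocyte marker PTPRC, COL3A1 and DES were not well above background on any array, and the 5 that could be tested (PECAM1, CD68, ACTA2, COL1A1 and CD3E) differed by -0.13 to 0.36 with 0 calls and 0 at an unadjusted p under 0.05. The methods' t-test with adjustment likewise called 0 in each list below for which limma called 0. Of 10 Ras-MAPK output genes, 3 were called (30%), against 11.2% of all tested probes. EGR1 was higher in mixed culture by 0.77 (limma's adjusted p = 0.0157) while FOSL1 was lower by -0.52 (adjusted p = 0.0193) and CCND1 by -0.59 (adjusted p = 0.0366, or 0.0633 with the replicate number as a block). Under spike-in scaling FOSL1 and CCND1 did not pass (adjusted p = 0.0511 and 0.0672). CCND1 also did not pass after quantile normalization (adjusted p = 0.0567) or by the methods' t-test (adjusted p = 0.102). The part of unsorted normal cells in any result was not tested. The labels do not say that replicates were separate cultures, so p-values measure the spread between these samples.

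Of the 51 members, 48 were well above background on all 6 arrays and were tested. Of these, 3 of 48 (6.25%) passed the test (1 higher and 2 lower in mixed culture). Over the whole array 11.2% of the 26534 probes tested passed (5.5% higher and 5.72% lower). Whether the share of the members differs from that of other probes was not tested. An unadjusted p under 0.05 by limma was reached by 11 of 48 members and by 8342 of the 26534 probes. The genes that passed were ATP5S and NDUFV2, both lower in mixed culture, and COX7B2, which was higher. The median log2 difference of mixed minus alone was -0.08 over the 48 members and -0.0037 over all tested probes. A difference below 0 was found in 36 of 48 members, against 50.6% of all tested probes. After quantile normalization it was found in 29 members, against 13307 of 26534 probes. After spike-in scaling, which shifted every probe alike, it was found in 46 members, against 19647 of 26534 probes. In bulk RNA, fewer cells of a type and less RNA per cell cannot be told apart, and a relative level says nothing of protein or respiration. With this replicate block the same 3 members were called, against 10.6% of all tested probes. The test was limma's moderated test, two-sided, with Benjamini-Hochberg adjustment over all tested probes and a threshold of 0.05.

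**Figure D1:**
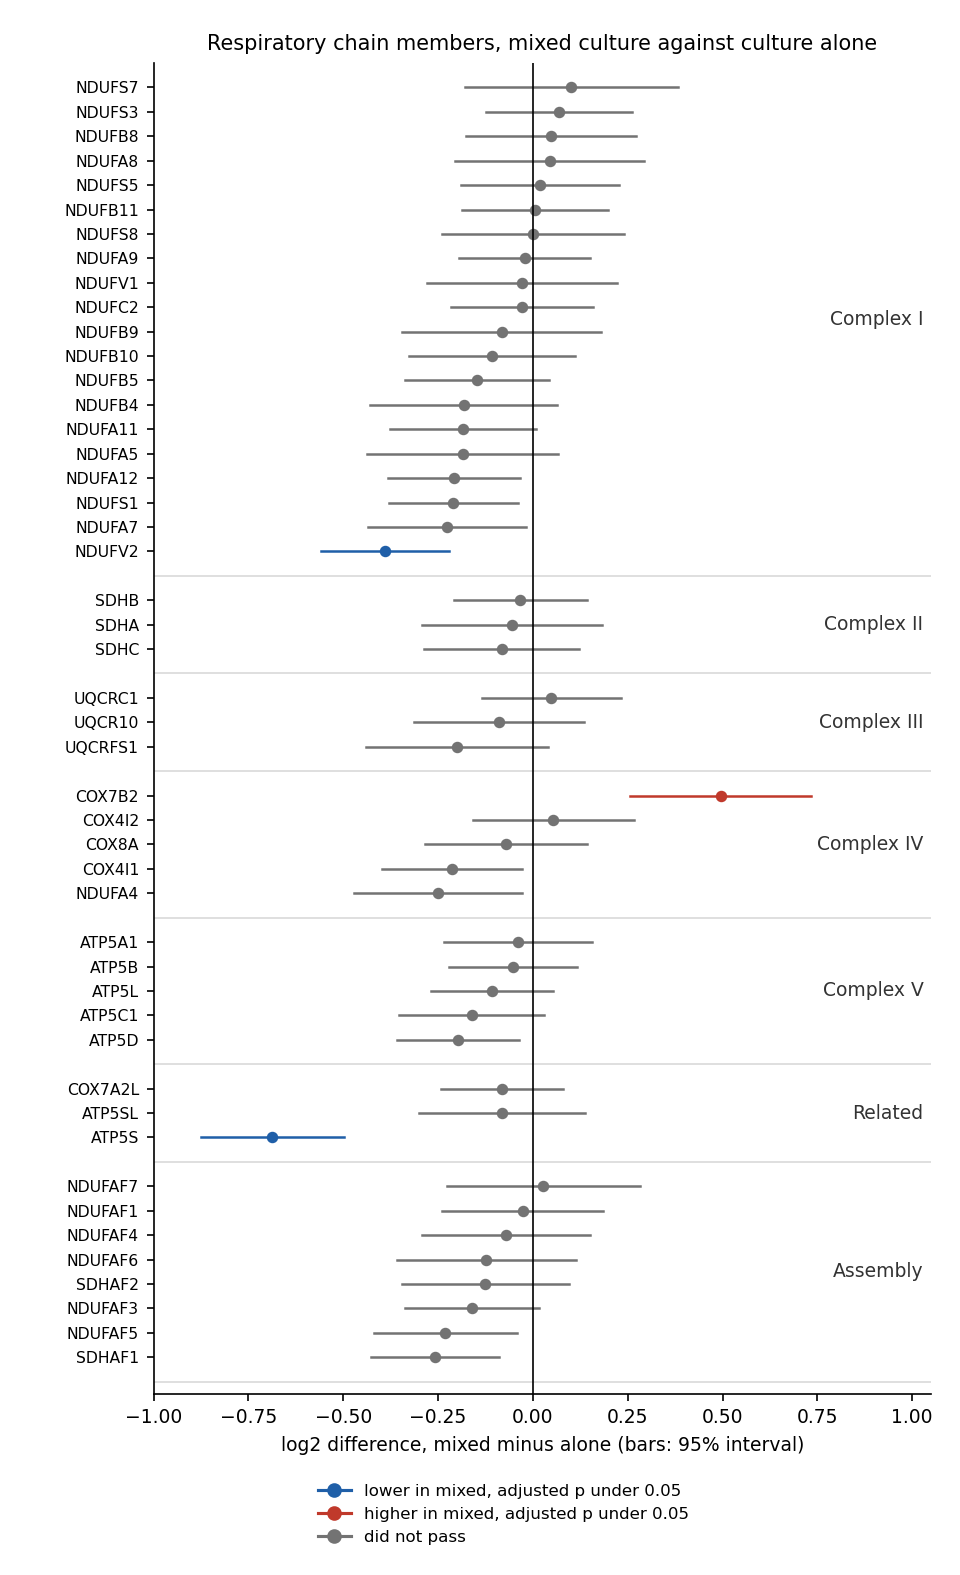
The log2 difference of mixed minus alone (horizontal axis) for 47 of the 48 tested members, grouped by complex, with the 95% interval from limma as a bar and 3 arrays a group. NDUFV2 and ATP5S lie below 0 and COX7B2 above it with adjusted p under 0.05, and the members in grey did not pass.

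Most of the differences were small. The 95% interval of the difference lay within 0.5 log2 units of 0 (1.41-fold) for 45 of the 48 members, against 58.9% of all tested probes, so for those 45 genes a change beyond 1.41-fold lay outside the interval. The standard error had a median of 0.09 over the members and 0.10 over all tested probes. The 3 members whose interval reached beyond that window were the same 3 that passed the test. Alone and mixed arrays were fully separated in 19 of the 48 members (39.6%, 17 with mixed below alone and 2 above), a share near the 37.2% of all tested probes.

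The probes that carried these calls are shown so that the measured part of each transcript can be seen. Positions are on the dog build canFam3 as the files give them, letters in capitals mark an in-frame stop codon, and each sequence has 1 reading frame free of any earlier stop. This was a search for stop codons alone, not a match to a protein. The files do not say which exon a probe falls in. The probes are 60 bases long, and for NDUFV2 the 55 bases up to the stop codon are printed.

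ATP5S, chr8:26770855-26770914, plus strand: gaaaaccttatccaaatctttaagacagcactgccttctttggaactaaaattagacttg
NDUFV2, chr7:75183962-75184021, plus strand: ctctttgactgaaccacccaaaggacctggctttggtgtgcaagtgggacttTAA
COX7B2, chr13:42739976-42740035, minus strand: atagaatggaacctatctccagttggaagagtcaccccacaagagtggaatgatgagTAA
NDUFS1, brighter probe, chr37:14683208-14685279 (a span longer than the probe, so it crosses a splice junction), minus strand: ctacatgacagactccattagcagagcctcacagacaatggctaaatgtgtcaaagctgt
NDUFS1, dimmer probe, chr37:14698463-14698522, minus strand: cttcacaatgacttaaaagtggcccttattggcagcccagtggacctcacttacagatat

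Complex I is the largest of the complexes and 22 of its subunits were on the array. Of the 21 that were tested, 1 was called lower in mixed culture and 0 higher (4.76%, against 11.2% of all tested probes). A difference below 0 was found in 13 and above 0 in 8, and the median was -0.03. The NADH-oxidising arm holds NDUFV1, which binds the flavin, and the iron-sulphur proteins NDUFV2 and NDUFS1. NDUFV2 had log2 levels of 6.50, 6.47 and 6.52 in the alone arrays and 6.06, 6.19 and 6.07 in the mixed arrays. Every mixed array lay below every alone array, and NDUFV2 fell by 0.39 on the log2 scale (SE 0.07, 95% interval -0.56 to -0.22, limma's adjusted p = 0.0254), or 1.31-fold. Of the 14 refitted alternatives, 7 kept this call, and it was lost under spike-in scaling (-0.55, adjusted p = 0.0517), with no filter on dim probes (adjusted p = 0.101) and in each fit without a single array other than alone replicate 1. NDUFV1, its partner in the same arm, was at 4.97, 4.70 and 4.66 alone and 4.81, 4.77 and 4.66 mixed. These overlap, and its difference of -0.03 (95% interval -0.28 to 0.22, adjusted p = 0.881) did not pass, with its other 2 probes at 0.06 and -0.08.

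NDUFS1, the largest subunit of the same arm, was measured by 2 probes that differed in their call. At the brighter probe the levels were 2.49, 2.54 and 2.46 alone against 2.22, 2.33 and 2.31 mixed, a difference of -0.21 (SE 0.07, limma's adjusted p = 0.101). At the dimmer probe they were -0.77, -0.56 and -0.65 alone against -1.05, -1.19 and -1.08 mixed, a difference of -0.45 (SE 0.09, adjusted p = 0.0273). With the replicate block the adjusted p of the dimmer probe was 0.0514, and under spike-in scaling it was 0.0656. By the methods' t-test it was 0.0621, and with no filter on dim probes 0.102. The call was also lost without alone replicate 2 or 3 or mixed replicate 2 or 3, so 6 of the 14 refitted alternatives kept it. Mixed lay below alone at both probes, which sit in different parts of the gene (above), and with the probes of the gene averaged the difference was -0.33 (adjusted p = 0.0389). Whether the probes themselves differ in response was not tested.

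The arm that hands electrons to coenzyme Q includes NDUFS3, NDUFS7 and NDUFS8, and their differences were at or above 0, although all 3 turned below 0 under spike-in scaling, which shifted the median of all probes to -0.16. NDUFS7 differed by 0.10 (adjusted p = 0.595), NDUFS3 by 0.07 (adjusted p = 0.597) and NDUFS8 by 0.00 (95% interval -0.24 to 0.24), and no probe of these 3 genes passed. Under spike-in scaling NDUFS3 was at -0.09 and NDUFS7 at -0.06.

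The accessory subunits of complex I, which surround the catalytic core, ranged from -0.23 (NDUFA7, adjusted p = 0.135 by limma) to 0.05 (NDUFB8, adjusted p = 0.766). NDUFA12 was lower at both of its probes, which overlap in part, without passing, by -0.21 and -0.25 (adjusted p = 0.109 and 0.0799). NDUFA11, NDUFA5 and NDUFB4 followed at -0.18, -0.19 and -0.18, and NDUFB11, NDUFS5 and NDUFC2 lay within 0.03 of 0. NDUFA1 could not be tested, since its probe, designed to an expressed sequence tag, was not well above background on any array.

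Complex II, which oxidises succinate and also belongs to the tricarboxylic acid cycle, had 3 subunits on the array. By limma 0 of them were called, against 11.2% of all tested probes, with 0 at an unadjusted p under 0.05. SDHA, the flavoprotein, was at 3.19, 3.08 and 3.05 alone and 3.23, 2.94 and 2.98 mixed, and the groups overlapped. Its difference was -0.06 (95% interval -0.29 to 0.18, limma's adjusted p = 0.741). SDHB, the iron-sulphur subunit, differed by -0.03 (adjusted p = 0.787) at its brighter probe and by -0.23 (adjusted p = 0.106) at its dimmer one. SDHC, a membrane anchor, had 2 probes of identical sequence, and these gave -0.08 and -0.06 on the same 6 arrays. The remaining probe, of another sequence, gave 0.06.

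Complex III passes electrons from coenzyme Q to cytochrome c. UQCRC1, a core protein of its matrix side, was at 7.35, 7.18 and 7.22 alone and 7.35, 7.26 and 7.29 mixed, with a difference of 0.05 (95% interval -0.13 to 0.23, limma's adjusted p = 0.704). UQCRFS1, the Rieske iron-sulphur protein, was at 6.74, 6.49 and 6.46 alone and 6.36, 6.45 and 6.29 mixed. The groups did not overlap, although mixed replicate 2 and alone replicate 3 lay close together, and the difference of -0.20 (adjusted p = 0.223) did not pass. Its dimmer probes gave -0.06 with overlapping groups (adjusted p = 0.701) and -0.13 without overlap (adjusted p = 0.287). UQCR10 differed by -0.09 at each of its 2 probes.

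Complex IV, cytochrome c oxidase, had 6 members on the array and the 1 call upwards (20% of its 5 tested members, against 11.2% of all tested probes). COX7B2 is a paralogue of the subunit COX7B that is known from testis. It was at 0.82, 0.51 and 0.53 in the alone arrays and at 1.10, 1.10 and 1.14 in the mixed arrays. Every mixed array lay above every alone array, with alone replicate 1 the nearest, and COX7B2 rose by 0.49 on the log2 scale (SE 0.10, 95% interval 0.26 to 0.73, limma's adjusted p = 0.0315), or 1.41-fold. Of the 14 refitted alternatives, 6 kept this call. Under spike-in scaling its difference was 0.33 and did not pass (adjusted p = 0.0838), nor did it pass by the methods' t-test (adjusted p = 0.0782 for 3 arrays against 3). The call was also lost with no filter on dim probes (adjusted p = 0.108) and in each fit without a single array other than alone replicate 1. Both isoforms of the regulatory subunit COX4 went without a call. COX4I1, the ubiquitous isoform, was at 7.15, 6.99 and 6.98 alone and 6.84, 6.85 and 6.79 mixed, so the groups did not overlap, and its 3 probes gave -0.21, -0.21 and -0.19 (adjusted p = 0.119 to 0.147). Of these 3 probes, 2 overlap in sequence and are not separate evidence. COX4I2, the isoform known from lung and from low oxygen, differed by 0.05 (adjusted p = 0.717).

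NDUFA4, a small subunit of complex IV that carries a complex I name, was at 7.53, 7.33 and 7.25 alone and 7.15, 7.15 and 7.07 mixed. Its difference of -0.25 (SE 0.09, limma's adjusted p = 0.125) did not pass, although the groups did not overlap. NDUFA4L2, its paralogue known from the hypoxic response, was not well above background on any array, and neither was the COX5A probe, which was designed to an expressed sequence tag, so no difference is given for either gene. COX8A differed by -0.07 (adjusted p = 0.632). COX7A2L, a related protein that joins complexes into larger assemblies, differed by -0.08 (adjusted p = 0.454). The isoform pairs COX6A1 and COX6A2, COX6B1 and COX6B2, and COX7A1 and COX7A2 were not among the members and could not be compared as pairs here.

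**Figure D2:**
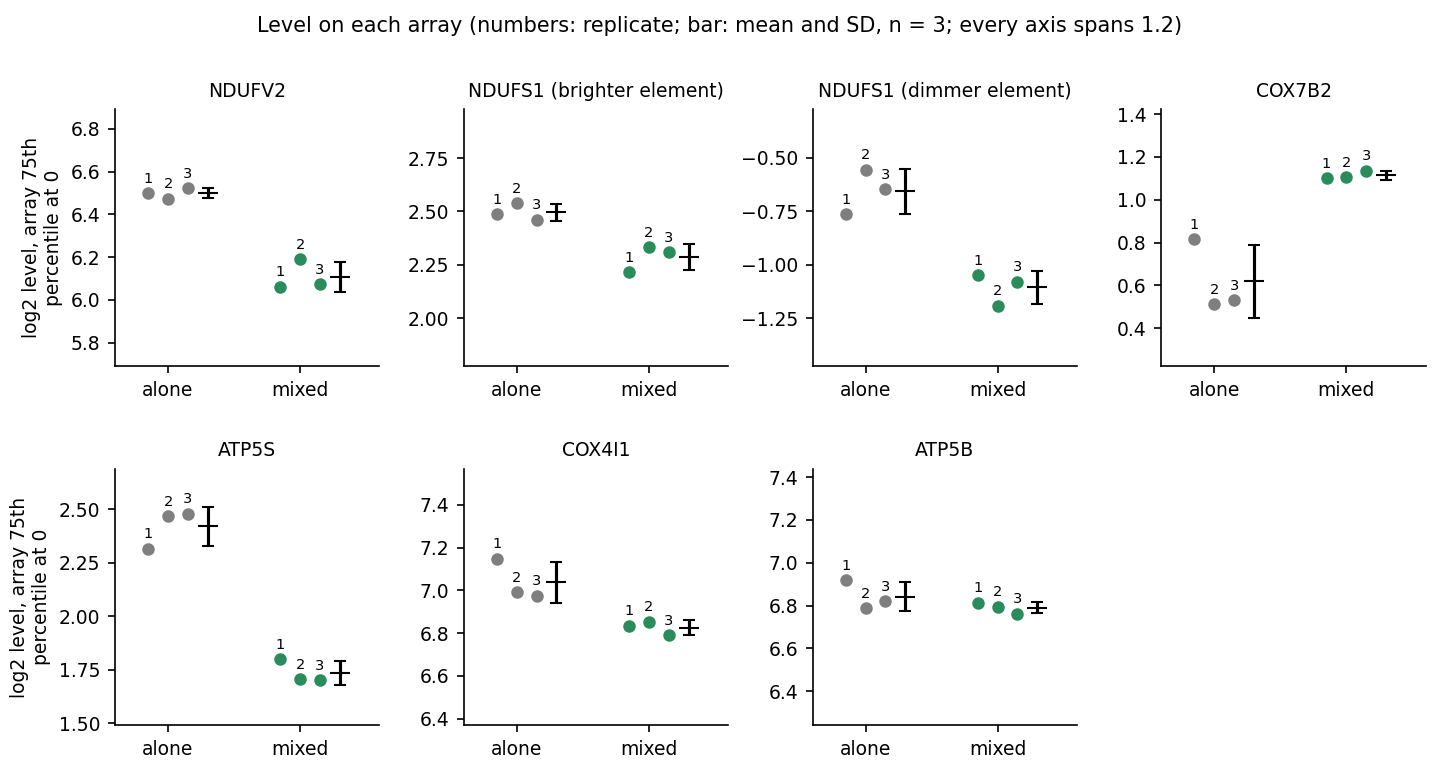
Log2 level relative to the array's 75th percentile (vertical axis, each spanning 1.2 units) on the 6 arrays for 6 members, NDUFS1 with both of its probes, with the replicate number above each point and the mean and SD of 3 arrays as a bar. Alone and mixed arrays do not overlap for NDUFV2, both NDUFS1 probes, COX7B2, ATP5S and COX4I1, and they overlap for ATP5B.

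Complex V had 5 members on the array, all with a difference below 0 (3 of 5 after quantile normalization). By limma 0 of them were called, against 11.2% of all tested probes, with 1 at an unadjusted p under 0.05. ATP5A1 and ATP5B encode the alpha and beta subunits of the catalytic head. ATP5A1 was at 7.71, 7.48 and 7.55 alone and 7.53, 7.56 and 7.54 mixed, a difference of -0.04 (95% interval -0.23 to 0.16, limma's adjusted p = 0.777). ATP5B was at 6.92, 6.79 and 6.82 alone and 6.81, 6.79 and 6.76 mixed, a difference of -0.05 (95% interval -0.22 to 0.12, adjusted p = 0.651). The dimmer probe of ATP5B gave -0.19 (adjusted p = 0.211). Both genes overlapped between the groups. ATP5C1 and ATP5D, of the central stalk, differed by -0.16 and -0.20 (adjusted p = 0.221 and 0.105) with no overlap. ATP5L differed by -0.11 (adjusted p = 0.318), and since its probe is annotated to a gene described as like subunit g, its identity is less certain.

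The largest difference of any member belonged to a gene that is not a stoichiometric subunit. ATP5S, once described as coupling factor B of the ATP synthase and called DMAC2L in the current RefSeq table, was at 2.32, 2.47 and 2.48 in the alone arrays and 1.80, 1.70 and 1.70 in the mixed arrays. The groups were well separated, and ATP5S fell by 0.69 on the log2 scale (SE 0.08, 95% interval -0.88 to -0.50, limma's adjusted p = 0.0135), or 1.61-fold. Of the 14 refitted alternatives, 9 kept this call, with differences of -0.69 to -0.66 in those that lost it. ATP5SL, which has a similar name, differed by -0.08 (adjusted p = 0.579).

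Of the 8 members named as assembly factors, 7 had a difference below 0 (8 under spike-in scaling). By limma 0 were called, against 11.2% of all tested probes, with 2 at an unadjusted p under 0.05. SDHAF1, which helps to insert iron-sulphur clusters into SDHB, was at 5.81, 5.90 and 5.89 alone and 5.65, 5.62 and 5.55 mixed. The groups did not overlap, and the difference of -0.26 (SE 0.07, limma's adjusted p = 0.0627) missed the threshold, which it passed without alone replicate 1 (-0.29, adjusted p = 0.0317) and after normexp background correction (-0.29, adjusted p = 0.0242). At the dimmer SDHAF1 probe the groups overlapped, with a difference of -0.22 (adjusted p = 0.152). That probe did not pass in either of these settings (adjusted p = 0.0575 and 0.193). NDUFAF5, a complex I assembly factor, gave -0.23 at both of its probes (adjusted p = 0.104 and 0.153), which overlap in position and are not separate evidence. NDUFAF7 gave 0.03 (adjusted p = 0.884). Over all members, 22 genes had 2 or more tested probes. Their probes shared a sign in 18 genes and a call in 21, the exception for the call being NDUFS1, and the median span between probes of a gene was 0.05. Part of this agreement comes from probes that overlap in position, among them those of NDUFAF5, NDUFB8, NDUFS7, UQCRC1, COX4I1 and SDHC.

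Alone replicate 1 stood apart for these genes. It held the highest level of the 3 alone arrays in 40 of the 48 members (83.3%), against 46.8% of all tested probes. The median deviation of the members from their own mean over the 6 arrays was 0.15 on that array, -0.01 and 0.00 on alone replicates 2 and 3, and -0.04 to -0.05 on the mixed arrays, while over all tested probes it lay between -0.01 and 0.01 on every array. Without alone replicate 1 the median difference of the members was -0.02, against -0.08 with it. Over all tested probes the median was then -0.01, and 30 of the 48 members had a difference below 0. The 3 called genes did not depend on that array: without it 5 members were called, among them the same 3 and SDHAF1, against 26.4% of all tested probes. Leaving out alone replicate 2, alone replicate 3, mixed replicate 2 or mixed replicate 3 left 0 members called, and over all probes then 24, 7, 9 and 12 calls remained. Without mixed replicate 1 only ATP5S was called.

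**Figure D3:**
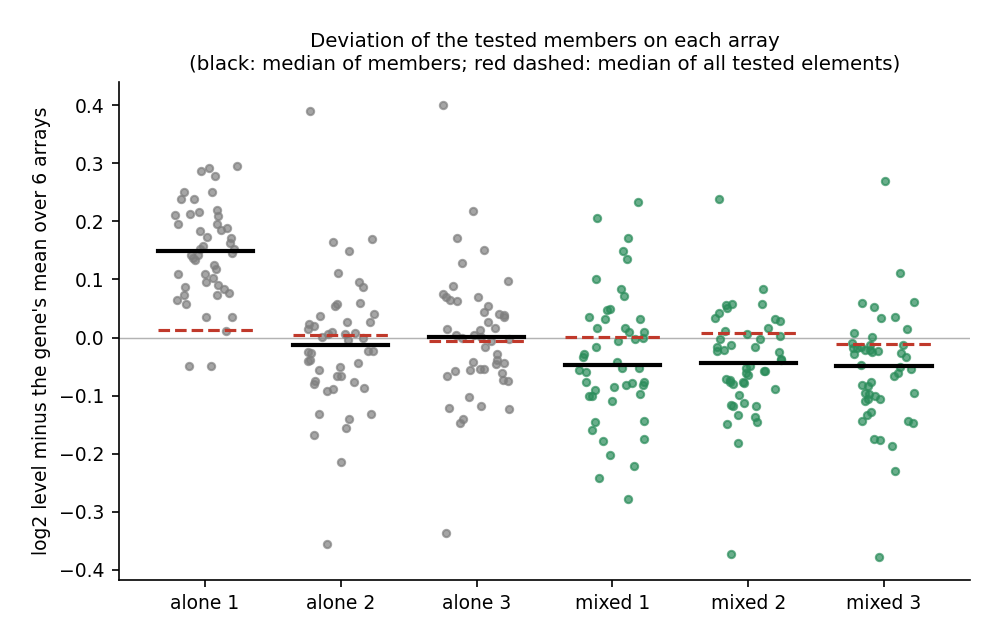
Deviation of each of the 48 tested members from its own mean log2 level over the 6 arrays (vertical axis), by array, with the median of the members as a black line and the median of all tested probes as a red dashed line. The members sit at a median of 0.15 on alone replicate 1 and near or below 0 on the other 5 arrays.

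Values for neighbouring mitochondrial gene lists stand beside those of the members, and the calls in them were towards lower levels in mixed culture, the direction of 5.72% of all tested probes. Lists and members were chosen with earlier results of these data known. Of 13 genes for cytochrome c, cytochrome c1 and coenzyme Q synthesis, 3 were called (23.1%), against 11.2% of all tested probes. The methods' t-test with adjustment called 2 in this list, against 828 of the 26534 probes. CYCS, the electron carrier between complexes III and IV, was lower by -0.43 (SE 0.07, limma's adjusted p = 0.0195), from a mean of 7.23 ± 0.03 alone to 6.80 ± 0.05 mixed (SD, n = 3). COQ10B and COQ3, which bind and methylate coenzyme Q, were lower by -0.54 (adjusted p = 0.0160) and -0.50 (adjusted p = 0.0283, or 0.0639 under spike-in scaling). CYC1, the cytochrome c1 of complex III, differed by -0.15 (adjusted p = 0.306). Of 25 assembly factors outside the name rule, 3 were called (12%), a share near the 11.2% of all tested probes. These were COX15, an enzyme of haem A synthesis for complex IV (-0.65, adjusted p = 0.0183), COX18, which inserts a complex IV subunit into the membrane (-0.35, adjusted p = 0.0265), and NUBPL, which delivers iron-sulphur clusters to complex I (-0.44, adjusted p = 0.0407). COX15 did not pass by the methods' t-test with adjustment (adjusted p = 0.0514), COX18 did not under spike-in scaling (adjusted p = 0.0647), and NUBPL did not after normexp background correction (adjusted p = 0.0504) or by the methods' t-test (adjusted p = 0.0911).

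Of 13 tricarboxylic acid cycle enzymes, 12 had a difference below 0 (92.3%, against 50.6% of all tested probes, and 11 genes after normexp background correction) and 2 were called (15.4%, against 11.2%), FH (fumarase) at -0.42 (limma's adjusted p = 0.0231) and IDH3A at -0.38 (adjusted p = 0.0327, or 0.0561 with the replicate block and 0.0503 under spike-in scaling). Their median was -0.17. Of 62 mitochondrial ribosomal proteins, 7 were called (11.3%, a share near the 11.2% of all tested probes), 44 had a difference below 0 (71.0%, or 37 genes after quantile normalization) and the median was -0.12, with MRPL47, MRPS5, MRPL3, MRPL24 and MRPS23 at -0.42, -0.45, -0.38, -0.34 and -0.37. The other 2, MRPL32 and MRPL53, lost their call with the replicate block (adjusted p = 0.0719 and 0.0564), and under spike-in scaling MRPS5 was the 1 of these 7 still called (adjusted p = 0.0472). Among 17 tested genes of mitochondrial biogenesis and mitochondrial DNA expression, 1 was called (5.88%, against 11.2% of all tested probes). This was PPARGC1B, a coactivator of the programme, which was lower by -0.55 (adjusted p = 0.0313, or 0.0667 under spike-in scaling). PPARGC1B did not pass by the methods' t-test with adjustment, which called 0 in this list. Its relative PPARGC1A, picked out after its value was seen, differed by 1.33 (SE 0.38, adjusted p = 0.0685, or 0.0339 with the replicate block). TFAM, which packages and transcribes mitochondrial DNA, differed by -0.01 (adjusted p = 0.920).

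The 12 subunits encoded in mitochondrial DNA had a median of 0.01, with 7 above 0 and 5 below it (11 under spike-in scaling). By limma 0 were called, against 11.2% of all tested probes, with 1 at an unadjusted p under 0.05. COX1, the catalytic subunit of complex IV, had the lowest value at -0.27 (limma's adjusted p = 0.0827), and COX2 and COX3 were at 0.04 and 0.07. A further 10 nuclear subunits carry their symbol only in the description column of the array and were looked up after the members had been examined. None of these 10 was called, against 11.2% of all tested probes (limma, with 2 of the 10 at an unadjusted p under 0.05), and 8 had a difference below 0. COX7A1, the muscle isoform of a complex IV subunit, was at 1.37, 1.13 and 1.24 alone and 1.46, 2.24 and 2.23 mixed, a difference of 0.73 (SE 0.22, adjusted p = 0.0772) in which mixed replicate 1 stayed close to the alone arrays. COX6A1 differed by -0.12 (adjusted p = 0.345) and ATP5G3, a subunit of the membrane ring of complex V, by -0.01 (adjusted p = 0.951).

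**Figure D4:**
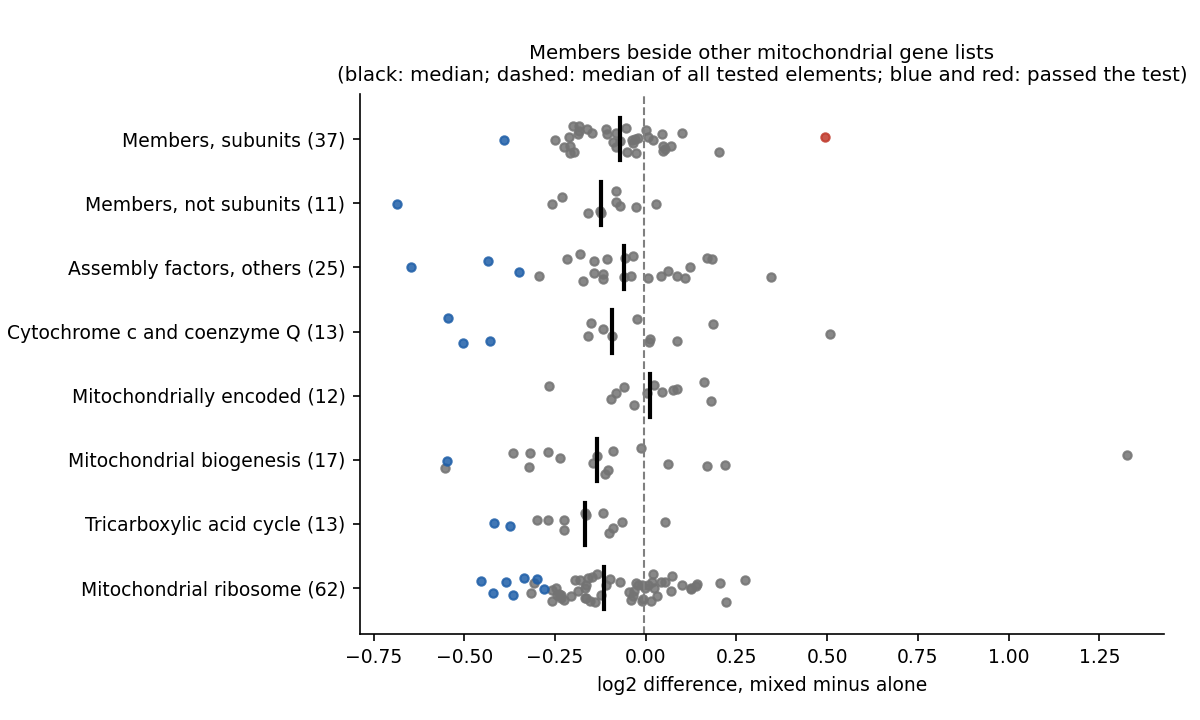
Log2 difference of mixed minus alone (horizontal axis) for the tested genes of each list, with the number of genes after its name, the median as a black line and the median of all tested probes dashed. Blue points were called lower and the red point, COX7B2, was called higher. Among the 12 mitochondrially encoded subunits 0 were called, against 11.2% of all tested probes.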

How the data were processed

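Gene expression was measured on 1-colour Agilent canine arrays, 3 per group. The authors deposited, per the file headers, Agilent Feature Extraction 10.10.1.1 intensities per spot, corrected for background within the array, and a table of log2 values that equals, to within 0.0162, the log2 intensity minus a constant close to the array's 75th percentile. Outlier-flagged and control spots were left out, spots of a probe were averaged, and log2 intensities were taken minus the array's 75th percentile. A probe was tested if every array of 1 group or of both had it well above background, using lmFit and eBayes (limma 3.58.1, R 4.3.3). Tables and plots used Python, pandas and matplotlib. The number of arrays limits the precision. On simulated data with 200 changed probes of 26534, the test recovered 94% of 2-fold and 99% of 4-fold changes with 11 false calls. The simulated noise was independent between probes and arrays and held no slide effect, unlike the real arrays. No tested member changed as much as 2-fold, so these shares do not give the power for the members.

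The genes named were those that passed, the 5 largest rises and falls, core subunits, isoform pairs, and up to 5 called genes a list. Members and lists were chosen with earlier results of these data known. A probe was to be printed where it matched a protein, but no protein table was used here, so the search for stop codons took its place. Replicate numbers come from the titles and match positions on the slide. After removing group means, same-numbered arrays correlated at 0.162 to 0.349 and others at -0.329 to 0.238, so the replicate block was an alternative. The study's methods name no test for these arrays. The t-test they use elsewhere was an alternative, as were other scalings, filters and leaving out each array. The values of 1 tested member are not reported here, and it is counted in the totals.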

Additional observations from a re-analysis of the deposited data

How the results depend on the processing

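The counts of calls were the least stable values. Normexp background correction gave 5 members and 32 genes of the pathway lists (against 3 and 19), spike-in scaling 1 and 7 with 995 probes over the array (against 2978), and no filter on dim probes 0 and 0 with 12 probes. The methods' t-test gave 828 probes after adjustment, and a threshold of at least 2-fold left 0 members and 300.0 probes. With each array left out in turn, 0 to 5 members, 0 to 33 genes of the lists and 7 to 7335 probes were called. The replicate block gave 3 members, 19 genes of the lists and 2825 probes, and among the genes named it changed only the calls given beside the results. The share of calls higher in mixed culture was 49.0%, 30.3% under spike-in scaling and 39.3% by the t-test.

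The median difference of the members was below 0 under every alternative run. Without alone replicate 1 it was -0.02 with 30 of 48 members below 0, close to the -0.01 of all tested probes. Spike-in scaling gave -0.24 with 46 of 48 members below 0, but it also shifted the median of all tested probes to -0.16. Quantile normalization gave -0.05 with 29 members below 0. ATP5S and NDUFV2 stayed lower and COX7B2 higher under every alternative. Signs turned for several uncalled members near 0, among them with quantile normalization ATP5A1 (0.0091), ATP5B (0.0222), COX8A (0.0021), NDUFA9 (0.0039), NDUFC2 (0.0484), NDUFV1 (0.0272) and SDHB (0.029), with spike-in scaling COX4I2 (-0.11), NDUFB8 (-0.11), NDUFS3 (-0.092), NDUFS7 (-0.0595), NDUFS8 (-0.16), NDUFAF7 (-0.13) and UQCRC1 (-0.11), and with single arrays left out ATP5A1 (-0.089 to 0.024), COX4I2 (-0.0191 to 0.1036), NDUFV1 (-0.0858 to 0.07) and SDHB (-0.0801 to 0.0011). The cause of these changes was not tested. No block for slide could be fitted, since the slides coincide with the groups. Dim probes limit what can be said of NDUFA1, COX5A and NDUFA4L2.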
